A study of Homo sapiens with 36 samples.

Results

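The zinc finger genes described here are the 92 protein-coding genes of distal chromosome 19q whose symbol starts with ZNF and whose start lies at or above position 52000000 of chromosome 19 in GENCODE v44 (GRCh38), with ZNF274 left out. All 92 were found by Ensembl identifier among the 58302 genes of the count files. The counts came from RNA sequencing of 36 libraries of the established cell lines JEKO, MINO and UPN-1, 3 human lines of mantle cell lymphoma (a B-cell cancer), cultured in RPMI-1640 with serum. Cells of each line had been given GS716054, which the labels call an inhibitor of the KDM5 histone lysine demethylases, or DMSO alone, and RNA was taken after 24 h or 72 h. Each of the 12 combinations of line, treatment and time had 3 biological replicates. No genotype change and no dose is given in the labels, and every DMSO group is a culture of the same line as the group it was compared with. Each line derives from 1 patient and stands for that line only, and the spread between replicates is the spread between cultures of 1 line.

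Most of these genes encode Krüppel-associated box (KRAB) zinc finger proteins. In such proteins an array of C2H2 zinc fingers binds DNA, and the KRAB domain binds the co-repressor TRIM28, which brings in the histone H3 lysine 9 methyltransferase SETDB1. ATF7IP is a partner of SETDB1 that keeps it stable and in the nucleus. ZNF274, a zinc finger protein encoded within the same cluster, is known to bind the 3′ ends of zinc finger genes, so the cluster is itself a known target of the silencing machinery that many of its proteins use. KDM5 enzymes remove methyl groups from histone H3 lysine 4, a mark of active promoters.

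For description, the 92 genes were cut into 2 groups at position 56000000, a chosen value. The first group of 41 runs from position 52012765 to the end of ZNF581 at 55645623. The second group of 51 runs from the start of ZNF787 at 56087366 to the end of ZNF446 at 58481230, near the end of the chromosome arm. A wider gap lies inside the first group, from the end of ZNF331 at 53580269 to the start of ZNF628 at 55476617. Of the 92, 52 lie on the plus strand and 40 on the minus strand. Their summed exons measure 1252 to 13421 bases, with a median of 5624.5. In the translated coding sequences, a C2H2 zinc finger pattern was found 12 times in the median gene and up to 26 times, in ZNF845. The readthrough gene ZNF816-ZNF321P held 0 fingers. A KRAB pattern was found in 76 of the 92 proteins, against 124 of 156 for the ZNF genes elsewhere on chromosome 19 and 104 of 267 for those of other chromosomes. The 16 genes without the pattern include neighbours at the boundary of the 2 groups (ZNF628, ZNF579, ZNF524, ZNF865, ZNF784, ZNF580, ZNF581, ZNF787 and ZNF444). The shared linker TGEKP between fingers was found in 70 proteins.

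Promoter windows of 300 bases, from 250 bases before to 50 after the start, were found in the RefSeq table (GRCh38.p14) for 81 of the 92 genes. ZNF480, ZNF610, ZNF600, ZNF28, ZNF888, ZNF665, ZNF524, ZNF471, ZNF211, ZNF552 and ZNF417 were not in it. ZNF816 and ZNF816-ZNF321P have the same window, which was counted for each gene. Letters were searched on both strands for 7 motifs. TTCCGG, the core of binding sites of ETS family factors, was in 58 of 81 windows (71.6%), against 46.3% of 136 windows of other chromosome 19 ZNF genes, 45.2% of 217 windows of ZNF genes of other chromosomes and 23.1% of the windows of all 15345 protein-coding genes in the table. GGAAGT, another ETS-type sequence, was in 46.9% of the 81 windows and 25% of all 15345. CCGCCC, a sequence that the ARID domain of KDM5A is known to bind, was in 75.3% against 59.2%. The pentamer CCAAT was in 50.6% against 36.6%. In the 136 windows of other chromosome 19 ZNF genes CCAAT was more frequent, at 56.6%, with CCGCCC at 63.2% and GGAAGT at 36.8%. In the 217 windows of ZNF genes of other chromosomes the shares were 43.3%, 60.4% and 35.9%, in the same order. The consensus letters of ZBTB33, NRF1 and ZNF143 sites were in 0, 1 and 0 of the 81 windows, against 0.691%, 1.72% and 0.0652% of all 15345. On opposite strands GGAAGT and TTCCGG can share bases, so their counts are not independent. The windows held a median of 25 CpG dinucleotides (range 11 to 42), against 22 in all protein-coding windows. A match of letters is a description of the sequence and shows no binding.

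The windows of 4 genes on which the results below turn are printed 5′ to 3′ along each gene's own strand, with every match to TTCCGG on either strand, and likewise every match to CCGCCC, in capitals. ZNF544 (chr19:58228664-58228963, plus strand) and ZNF416 (chr19:57578862-57579161, minus strand) are the genes called between treated and DMSO cells of a line by the main test described below. Other fits called further genes. ZNF135 (chr19:58058989-58059288, plus strand) and ZNF347 (chr19:53159004-53159303, minus strand) are the genes whose levels differed most among the lines.
ZNF544: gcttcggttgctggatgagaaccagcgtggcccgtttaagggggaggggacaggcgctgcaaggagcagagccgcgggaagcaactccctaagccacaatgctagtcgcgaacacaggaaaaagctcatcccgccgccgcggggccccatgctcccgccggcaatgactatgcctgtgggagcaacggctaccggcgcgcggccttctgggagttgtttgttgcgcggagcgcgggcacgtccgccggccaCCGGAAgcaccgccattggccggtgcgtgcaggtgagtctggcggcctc
ZNF416: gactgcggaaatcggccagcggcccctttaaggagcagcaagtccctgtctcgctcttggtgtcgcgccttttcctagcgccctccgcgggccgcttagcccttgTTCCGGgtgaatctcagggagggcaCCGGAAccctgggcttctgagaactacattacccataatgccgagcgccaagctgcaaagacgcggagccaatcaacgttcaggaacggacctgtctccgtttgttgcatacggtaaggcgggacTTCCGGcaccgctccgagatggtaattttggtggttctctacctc
ZNF135: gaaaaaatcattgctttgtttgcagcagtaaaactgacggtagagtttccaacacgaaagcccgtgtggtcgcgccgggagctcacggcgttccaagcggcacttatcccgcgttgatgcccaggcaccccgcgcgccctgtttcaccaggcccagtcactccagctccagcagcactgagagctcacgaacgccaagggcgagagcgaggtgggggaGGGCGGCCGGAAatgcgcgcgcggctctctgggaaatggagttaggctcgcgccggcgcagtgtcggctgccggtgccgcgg
ZNF347: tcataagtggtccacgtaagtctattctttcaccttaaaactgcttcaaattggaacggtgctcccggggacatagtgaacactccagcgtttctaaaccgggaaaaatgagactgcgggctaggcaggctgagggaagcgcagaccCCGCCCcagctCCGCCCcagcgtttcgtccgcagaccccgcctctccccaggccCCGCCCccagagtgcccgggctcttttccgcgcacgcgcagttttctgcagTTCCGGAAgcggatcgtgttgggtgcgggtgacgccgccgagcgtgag
The ZNF416 window holds 3 copies of TTCCGG and 0 of CCGCCC, and the ZNF347 window holds 3 copies of CCGCCC and 2 overlapping matches to TTCCGG or its reverse complement. The ZNF544 window holds 1 copy of TTCCGG and 0 of CCGCCC. The ZNF135 window holds 1 of each. CpG dinucleotides number 31 in the ZNF544 window, 24 in that of ZNF416, 32 in that of ZNF135 and 27 in that of ZNF347.

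Libraries held 8784815 to 14970876 reads in genes, and 3.55% to 4.92% of all reads were set aside as not aligned uniquely, a class to which reads shared by near-identical zinc finger genes would go. Levels are CPM, reads of a gene scaled to a common library total, here on library sizes scaled by the TMM method. A count of 0 allows up to 3 reads, or 0.196 to 0.353 CPM in a library, and such limits cover counting error only. The B-cell genes MS4A1, CD79A, CD79B and PAX5 and the mantle cell lymphoma genes CCND1 and SOX11 had reads in all 36 libraries. CD5 was between 0.835 and 6.05 CPM in UPN-1 and at 10.8 CPM or more in the other lines. Haemoglobin gene HBB was at 0 in all libraries, and of the other markers of non-B cells EPCAM reached the highest level, 16.0 CPM in a MINO library. Of the 92 genes, 28 share exon bases with a gene on the opposite strand and 39 with one on the same strand, and counting by strand was not stated. Reads in such bases cannot be assigned with certainty.

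In the vehicle, the zinc finger genes were expressed at low levels, and UPN-1 had the most of their RNA and JEKO the least. The summed level of the 92 genes at 24 h was 569.9, 578.6 and 604.7 CPM in the 3 JEKO DMSO libraries, 806.4, 829.4 and 855.1 CPM in MINO and 1159, 1164 and 1198 CPM in UPN-1. These ranges did not overlap. In bulk RNA, fewer expressing cells and less RNA per cell cannot be told apart. The median gene stood at 4.88 CPM in JEKO, 6.35 CPM in MINO and 9.48 CPM in UPN-1, and 78, 74 and 85 genes reached 1 CPM. The level of 77 of the 87 genes tested differed among the lines in DMSO at 24 h (adjusted p under 0.05, Benjamini-Hochberg, by the quasi-likelihood test of edgeR), while 65.8% of all 17980 genes tested did. With a replicate block within each time, 67 of the 87 did and 60.8% of all genes. Among the 77, UPN-1 was highest in 62 and JEKO lowest in 60, and MINO was highest in 13 and lowest in 17. Over all 11838 genes that differed, UPN-1 was highest in 32.3%. For the ZNF genes elsewhere on chromosome 19 UPN-1 was highest in 90 of 115 (78.3%), and for those of other chromosomes in 67 of 164 (40.9%). UPN-1 was highest in 27 of the 52 other protein-coding genes of distal 19q that differed (51.9%).

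Per kilobase of exon, the genes with the highest DMSO level at 24 h lacked the KRAB pattern, with 1 exception. ZNF581 led in JEKO (11.6 CPM per kb) and MINO (21.8 CPM per kb), followed by ZNF787 (9.86 and 15.2 CPM per kb), ZNF524 (6.14 and 13.1) and ZNF580 (5.55 and 12.3). The fifth was ZNF444 in JEKO (4.79 CPM per kb) and ZNF865 in MINO (9.27 CPM per kb). ZNF787 led in UPN-1 (19.1 CPM per kb), followed by ZNF581 (16.4), ZNF579 (9.59), ZNF524 (7.61) and the KRAB gene ZNF614 (7.20). ZNF581 shares 24.9% of its exon bases with ZNF580 and CCDC106 on the same strand. Unlike the 63 differing genes with a KRAB pattern, of which UPN-1 was highest in 55, the 14 differing genes without it were split, with UPN-1 highest in 7 and MINO in 7. The difference between these shares was not tested.

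**Figure D1:**
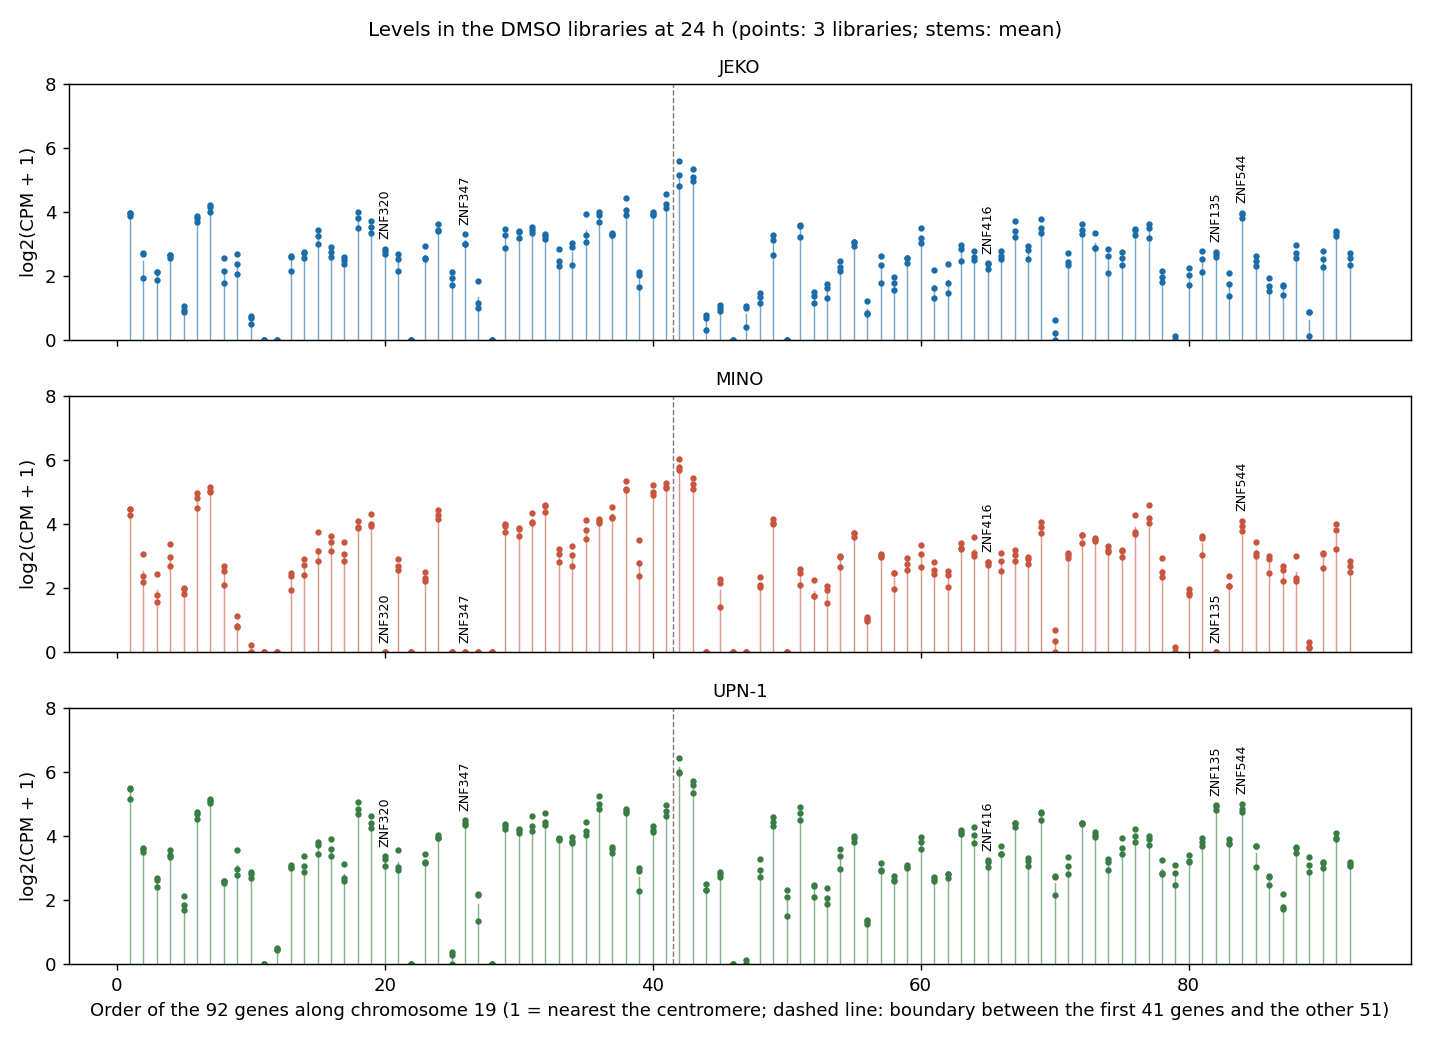
Level of each of the 92 genes (log2 of CPM plus 1, y axis) in order along chromosome 19 (x axis) in the 3 DMSO libraries of each line at 24 h, with 1 point per library and a stem to their mean. Genes at 0 in MINO but not in UPN-1, such as ZNF347 and ZNF135, stand next to genes at ordinary levels, and the highest stems are beside the boundary between the first 41 and the other 51 genes.

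Some genes had no reads in 1 line and clear levels in another. Of the 92 genes, JEKO had 4 at 0 in all of its 12 libraries, MINO had 10 and UPN-1 had 3. The MINO genes were ZNF135, ZNF347, ZNF415, ZNF665, ZNF471, ZNF578, ZNF534, ZNF816-ZNF321P, ZNF677 and ZNF667. ZNF816-ZNF321P, ZNF677 and ZNF667 had under 10 reads over all 36 libraries, and all exon bases of ZNF816-ZNF321P are shared with other genes. ZNF415, ZNF347, ZNF665 and ZNF677 are 4 neighbours in a row, between 53107879 and 53254898. The genes on either side of that run, ZNF160 and ZNF845, named for their position, stood at 18.5 ± 1.96 and 13.9 ± 1.35 CPM (SD, n = 3) in the same MINO DMSO libraries at 24 h.

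ZNF135 had the widest range. It was at 5.72, 5.01 and 5.40 CPM in the JEKO DMSO libraries at 24 h, at 0 in the 3 of MINO and at 27.2, 29.3 and 30.1 CPM in those of UPN-1 (adjusted p = 5.13e-16, edgeR). Over all 12 libraries JEKO had 1292 reads of it, MINO 0 and UPN-1 4189. Its UPN-1 level was at least 101-fold higher than 3 reads in a MINO library. An overlap with ZSCAN18 on the opposite strand covers 32.6% of its exon bases. ZNF347 was at 7.06, 8.87 and 7.06 CPM in JEKO, 0 in MINO and 21.4, 19.4 and 20.1 CPM in UPN-1, at least 71.1-fold higher in UPN-1 than 3 reads in a MINO library. Neither the MINO zeros nor the order JEKO below UPN-1 changed with treatment or time: both genes stayed at 0 in every treated MINO library.

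ZNF320 was at 6.17, 5.48 and 5.90 CPM in JEKO and 7.43, 9.32 and 8.80 CPM in UPN-1, with 1 read in the 12 MINO libraries together. ZNF132 and ZNF418 were mostly UPN-1 genes. ZNF132 was at 6.37, 7.60 and 9.23 CPM in UPN-1, with group means of 0.589 CPM in JEKO and 0.154 CPM in MINO. ZNF418 was at 7.53, 4.497 and 6.23 CPM in UPN-1, where it had 823 reads over 12 libraries against 4 in JEKO and 4 in MINO. ZNF835 had 411 reads in UPN-1, 6 in MINO and 0 in JEKO. The reverse order was rare: JEKO was highest for 2 of the 77 genes, ZNF415 (2.85 ± 0.543 CPM, SD, n = 3, against 0.170 ± 0.151 in UPN-1 and 0 in MINO) and ZNF471 (JEKO 202 reads, MINO 0 and UPN-1 1), both singled out after their values were seen. The promoter windows of the 12 genes with under 10 reads in MINO that are in the RefSeq table held a median of 26 CpG dinucleotides, and those of the other 69 a median of 24. The window of ZNF816-ZNF321P, among the 12, is also that of ZNF816, among the 69, which had 593 reads in MINO.

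**Figure D2:**
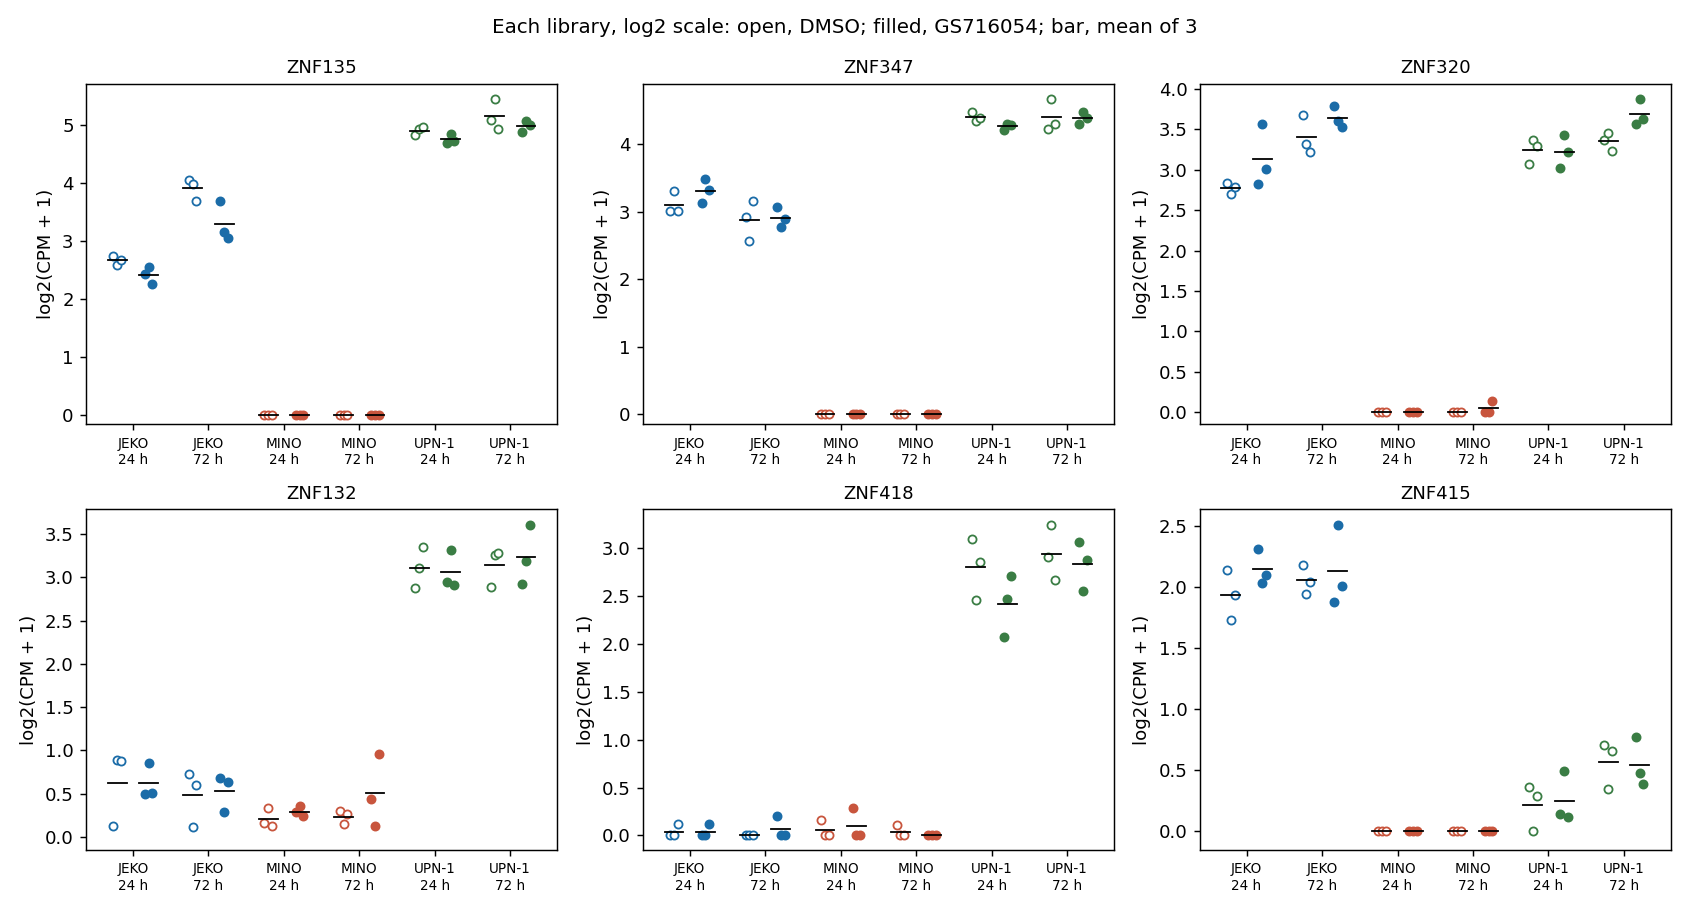
Level (log2 of CPM plus 1, y axis, each panel on its own scale) of 6 genes in all 36 libraries, by line and time (x axis), with open points for DMSO, filled points for GS716054 and a bar for the mean of 3. ZNF135, ZNF347 and ZNF415 are at 0 in all 12 MINO libraries, and ZNF132 and ZNF418 are high in UPN-1 only.

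Of the silencing factors that act on the cluster, ATF7IP and ZNF274 were each called lower in 3 of the 6 comparisons of GS716054 with DMSO. ATF7IP in UPN-1 at 24 h was at 117.9, 104.2 and 110.6 CPM in DMSO and 38.9, 41.5 and 44.8 CPM with GS716054 (-1.42 on the log2 scale, SE 0.144, adjusted p = 0.000657 by edgeR). ZNF274 fell there from 31.9, 33.5 and 33.7 to 15.9, 14.6 and 13.2 CPM (-1.19, adjusted p = 0.00109). The other calls came from MINO (24 h) and UPN-1 (72 h). With a replicate block within each time, ATF7IP was also called at 72 h in JEKO (adjusted p = 0.025, with 3.34% of all genes called) and MINO (0.0145, with 20.2%). In MINO at 24 h, where the block fit called 15.8% of all genes, more silencing factors were called. They were MORC2, EHMT2, SUV39H2, DNMT1 and UHRF1, lower, and EHMT1, higher (edgeR adjusted p 0.00368 to 0.04). DNMT1 was also called lower by the block fit in MINO at 72 h (0.00606). In the fit without a block, the MINO call of ZNF274 at 24 h was lost without any 1 of the 6 libraries (adjusted p 0.0646 to 0.147). That of ATF7IP was lost without 5 of the 6 (up to 0.0794, the exception being DMSO replicate 2, at 0.023). The ZNF274 call in UPN-1 at 72 h was lost without DMSO replicate 1 or without GS716054 replicate 1 or 3 (up to 0.0874). SETDB1 and TRIM28 were not called in any of the 6 comparisons, and of a list of 22 silencing factors 3 were called in the mean effect over the lines at 24 h, all lower, where 0.929% of all genes were called and 0.284% called lower: ATF7IP, ZNF274 and MORC2, a partner of the HUSH silencing complex (-0.45, adjusted p = 0.00399). The 24 h effect on ATF7IP was called different among the lines by DESeq2 (adjusted p = 0.00493). The block fit within each time also called it (0.000948, with 5.74% of all genes called), and edgeR without a block did not (0.0694). In JEKO at 24 h ATF7IP had means of 88.2 CPM in DMSO and 78.0 CPM with GS716054 and was not called.

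Few zinc finger genes were called between GS716054 and DMSO. In JEKO, 84 of the 92 genes passed the filter on low counts, and 0 were called at either time by edgeR, with 0.018% of all genes tested called at 24 h and 0.3% at 72 h. In MINO, 75 were tested. There 1 was called at 24 h, where 2.39% of all genes were, and 1 at 72 h, where 5.56% were. In UPN-1, 85 were tested and 0 were called at 24 h (0.0262% of all genes) and at 72 h (0.334%). DESeq2 also called 0 of them in the JEKO and UPN-1 comparisons. An unadjusted p under 0.05 was found for 1 and 5 JEKO genes at 24 h and 72 h (3.97% and 8.62% of all genes), for 5 and 12 MINO genes (17.7% and 22.2%) and for 6 and 4 UPN-1 genes (3.78% and 7.41%). The 95% interval of the fold change lay within 2-fold either way for 68 and 59 of the 84 genes in JEKO at 24 h and 72 h, for 62 and 58 of 75 in MINO and for 79 and 82 of 85 in UPN-1. Changes under 2-fold are not excluded by such intervals.

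**Figure D3:**
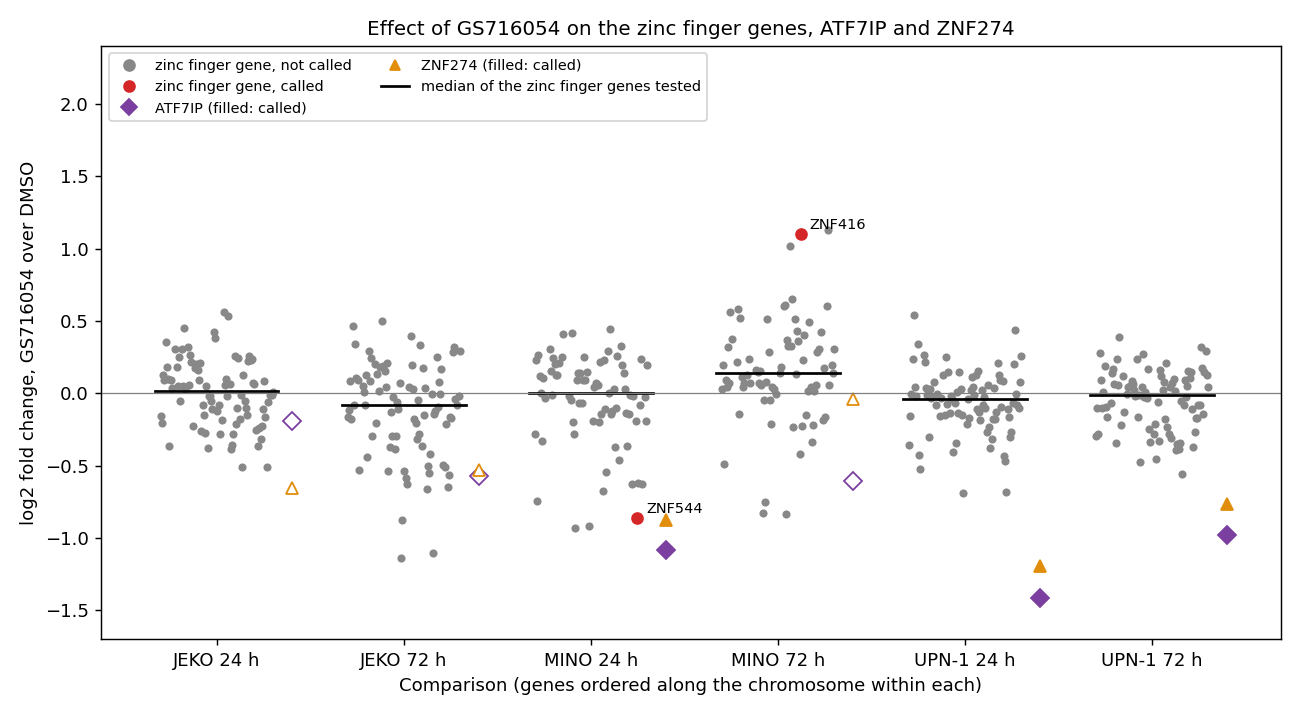
Log2 fold change of GS716054 over DMSO (y axis) of each zinc finger gene tested, in the 6 comparisons (x axis), with a bar at their median and ATF7IP and ZNF274 beside them. Only ZNF544 in MINO at 24 h and ZNF416 in MINO at 72 h are marked as called, by edgeR without a replicate block, and the medians lie between -0.08 and 0.14.

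In MINO at 24 h the called gene was ZNF544, a KRAB gene with 12 fingers at 58228594 to 58277495, the next of the cluster after ZNF274. Its level was 16.1, 12.8 and 14.5 CPM in DMSO and 5.98, 9.27 and 8.93 CPM with GS716054, and all treated libraries were below all DMSO libraries. This was a change of -0.86 on the log2 scale (SE 0.203, adjusted p = 0.0447 by edgeR), and 0.952% of all genes were called lower there. Leaving out any 1 of the 6 libraries lost the call (adjusted p 0.0896 to 0.173). At 72 h in MINO the treated libraries (12.7, 11.4 and 15.2 CPM) overlapped the DMSO libraries (11.6, 10.3 and 12.6 CPM). In UPN-1 at 24 h ZNF544 was at 26.2, 27.8 and 31.2 CPM in DMSO and 22.1, 24.98 and 24.1 CPM with GS716054, with no overlap (log2 fold change -0.27, SE 0.123, edgeR adjusted p = 0.9997). It was called in the mean effect over the 3 lines at 24 h (-0.40, SE 0.0976, edgeR adjusted p = 0.0391), as the 1 gene of the 87 tested, against the shares of all genes given above for that test. That call was lost without 13 of the 18 libraries at 24 h (adjusted p up to 0.101). It was kept without JEKO GS716054 replicate 2, MINO DMSO replicate 2, MINO GS716054 replicate 2 or 3, or UPN-1 DMSO replicate 1. Among the lines, the 24 h effect on ZNF544 differed at an unadjusted p of 0.0123 by edgeR and was not called different (adjusted p = 0.41). ZNF544 was not called in JEKO, and the mean alone does not show a change in each line.

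ZNF8 and ZNF331 had the next smallest p in MINO at 24 h and were not called. ZNF8, the gene after ZNF544 on the chromosome, was at 7.53, 9.84 and 7.05 CPM in DMSO and 5.98, 4.64 and 5.59 CPM with GS716054 (log2 fold change -0.62, SE 0.195, edgeR adjusted p = 0.117). Other genes on the same strand share 20.7% of the exon bases of ZNF8 and 7.08% of those of ZNF544. A gene without a symbol overlaps both. ZNF331, known as an imprinted gene, was at 7.18, 8.99 and 5.46 CPM against 4.46, 4.54 and 2.62 CPM (-0.93, SE 0.355, edgeR adjusted p = 0.19). Libraries with the same replicate number deviated together within a time, and with a replicate block within each time ZNF331 was called as well (adjusted p = 0.0248, edgeR). That fit called 3 of the 75 genes, ZNF544, ZNF331 and, higher, ZNF160, which is named after its values were seen, and it called 15.8% of all genes.

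In MINO at 72 h ZNF416, a KRAB gene with 11 fingers at 57571566 to 57578911, rose. It was at 3.23, 2.79 and 3.59 CPM in DMSO and 6.24, 8.72 and 5.97 CPM with GS716054 (1.10 on the log2 scale, SE 0.217, adjusted p = 0.0113 by edgeR), and 3.51% of all genes were called higher there. The call was kept without any 1 of the 6 libraries (adjusted p 0.0204 to 0.0487) and lost in a fit of those 6 libraries alone (0.125). Of its exon bases, 9.43% overlap ZIK1 on the opposite strand. At 24 h the same line gave 6.003, 5.56 and 6.08 CPM in DMSO and 6.20, 6.21 and 5.95 CPM with GS716054, so that the DMSO level at 72 h stood below both groups at 24 h. In JEKO at 72 h ZNF416 was at 3.76, 3.16 and 2.89 CPM in DMSO and 2.16, 2.02 and 2.00 CPM with GS716054, with all treated libraries lower (-0.66, SE 0.25, edgeR adjusted p = 0.435). UPN-1 at 72 h showed no separation, with 6.73, 6.27 and 7.87 CPM against 6.43, 7.14 and 7.33 CPM (0.02, SE 0.185). The effect at 72 h differed among the lines (edgeR adjusted p = 0.0013). ZNF416 was the 1 gene of the 87 tested for which it did, while 1.01% of all genes were called in that test.

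ZNF837 and ZNF776 followed in MINO at 72 h. ZNF837, a gene with 8 fingers and no KRAB pattern, was at 3.77, 1.499 and 5.82 CPM in DMSO and 7.54, 8.35 and 9.19 CPM with GS716054. The groups did not overlap, and it was not called (1.13, SE 0.354, edgeR adjusted p = 0.0821). It was called without DMSO replicate 3 (log2 fold change 1.61, adjusted p = 0.0386), by DESeq2 (0.0265) and with the replicate block within each time (0.0128). ZNF776 was at 10.3, 9.32 and 10.9 CPM in DMSO and 14.96, 14.98 and 13.6 CPM with GS716054 (0.49, SE 0.172, edgeR adjusted p = 0.111). With that block 5 of the 75 genes were called, where 20.2% of all genes were: ZNF416, ZNF837 and ZNF865 higher and ZNF579 and ZNF331 lower. ZNF865 and ZNF579 are named after their values were seen.

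**Figure D4:**
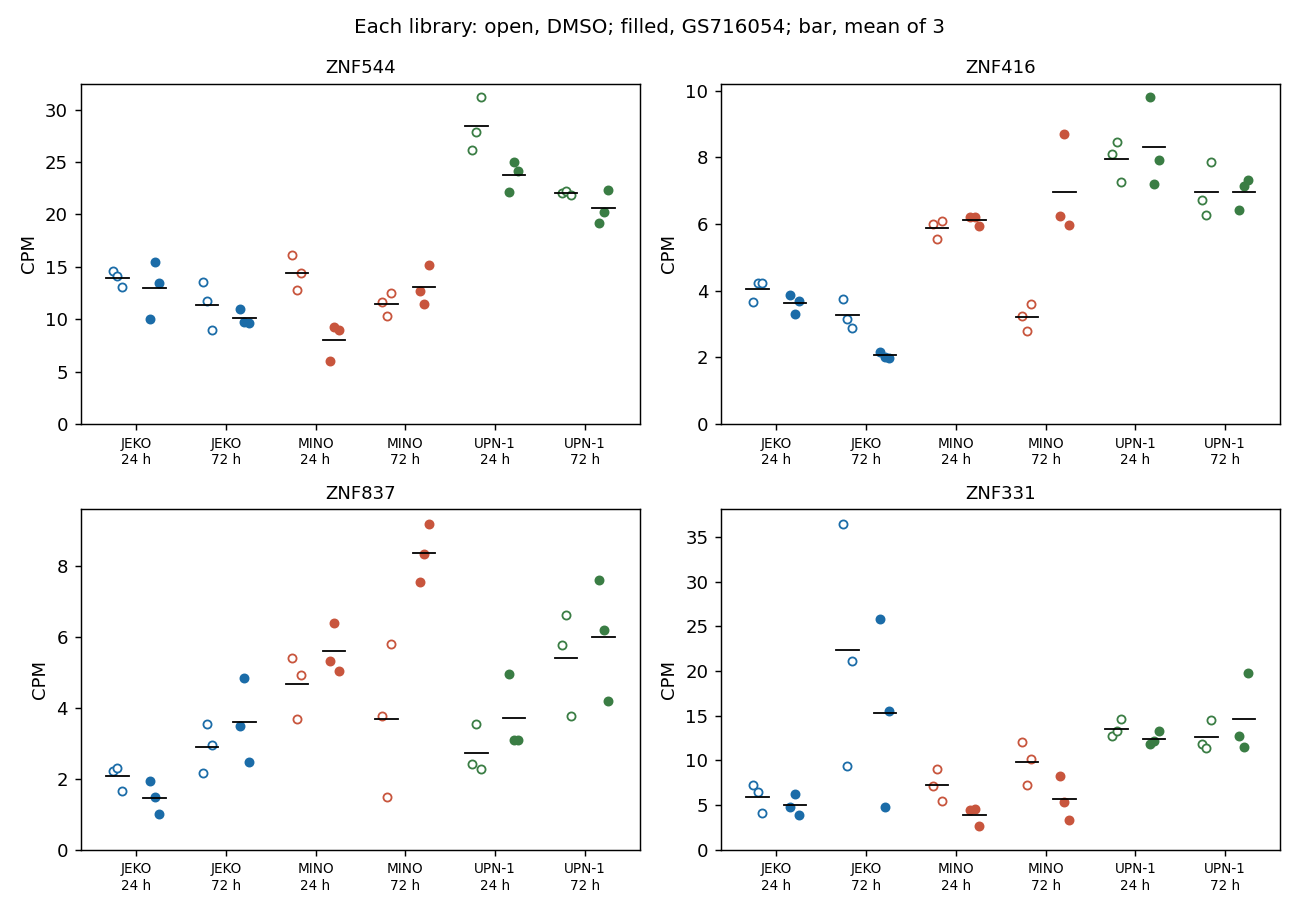
Level in CPM (y axis) of ZNF544, ZNF416, ZNF837 and ZNF331 in all 36 libraries by line and time (x axis), with open points for DMSO, filled points for GS716054 and a bar for the mean of 3. The treated MINO libraries of ZNF544 lie below the DMSO libraries at 24 h only, and those of ZNF416 lie above them at 72 h, where the JEKO libraries go the other way.

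In JEKO the genes with the smallest p at 24 h were ZNF134, ZNF320 and ZNF805, and the edgeR adjusted p was 0.9998 for each. ZNF134, a gene without the KRAB pattern, was at 8.23, 12.1 and 9.63 CPM in DMSO and 7.62, 5.25 and 8.42 CPM with GS716054, and the groups overlapped. At 72 h they were ZNF135, ZNF71 and ZNF416. ZNF135 was at 15.6, 14.9 and 11.8 CPM in DMSO and 11.8, 7.88 and 7.30 CPM with GS716054 (log2 fold change -0.65, SE 0.214, edgeR adjusted p = 0.331), after a DMSO level at 24 h of 5.01 to 5.72 CPM. ZNF71 was at 7.59, 7.51 and 7.55 CPM in DMSO and 5.29, 4.26 and 5.09 CPM with GS716054, and the groups did not overlap (-0.62, SE 0.217, edgeR adjusted p = 0.362). The 5 genes with an unadjusted p under 0.05 in JEKO at 72 h were lower with GS716054, where 3.49% of all genes were lower and 5.13% higher at that threshold. The JEKO libraries at 72 h varied more for ZNF331, with 36.4, 9.41 and 21.2 CPM in DMSO and 25.8, 4.77 and 15.5 CPM with GS716054, where the order of the replicate numbers was the same in both groups.

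In UPN-1 at 24 h ZNF583, ZNF256 and ZNF134 had the smallest p, all lower with GS716054 and none called (edgeR adjusted p = 0.9997 for each). ZNF583 was at 6.08, 6.43 and 5.64 CPM in DMSO and 3.10, 2.78 and 5.34 CPM with GS716054 (log2 fold change -0.69, SE 0.283). ZNF256 was at 8.11, 9.64 and 8.28 CPM in DMSO and 3.93, 5.14 and 7.09 CPM with GS716054 (-0.68, SE 0.284). At 72 h ZNF671, ZNF551 and ZNF134 had the smallest p. ZNF671 was at 10.1, 11.3 and 9.60 CPM in DMSO and 5.17, 8.32 and 7.33 CPM with GS716054, without overlap (-0.56, SE 0.217, edgeR adjusted p = 0.535). ZNF134 was at 18.6, 20.3 and 20.0 CPM against 13.2, 14.9 and 17.4 CPM at 24 h and at 17.6, 23.2 and 18.0 CPM against 13.3, 15.2 and 16.9 CPM at 72 h, with all treated libraries below all DMSO libraries at both times. With the replicate block within each time, 1 of the 85 genes was called at 24 h, where 1.5% of all genes were, and 2 at 72 h, where 7.47% were. They were ZNF614 at both times, named after its values were seen, and ZNF671 at 72 h, all lower.

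Complete separation of treated from DMSO libraries was counted for each comparison and read against all genes tested. In JEKO at 24 h, 2 genes were separated upward and 1 downward, where 7.03% and 5.51% of all genes were. In JEKO at 72 h, 1 was separated upward and 9 of 84 downward, where 6.51% and 4.81% were. The MINO counts were 6 upward and 7 downward of 75 at 24 h (19.9% and 15.2% of all genes) and 12 upward and 2 downward at 72 h (12.4% and 10%). For UPN-1 they were 5 upward and 11 downward of 85 at 24 h (7.82% and 6.96%) and 2 upward and 6 downward at 72 h (5.15% and 3.79%).

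The median log2 fold change of the zinc finger genes stayed near 0. It was 0.02 in JEKO at 24 h and -0.08 at 72 h, 0.00 and 0.14 in MINO, and -0.04 and -0.01 in UPN-1, while the median of all genes lay between -0.03 and 0.01. Leaving out 1 library moved the sign of 3 of these medians. The JEKO 24 h median then ran from -0.05 (35 of 84 genes above 0, without GS716054 replicate 2) to 0.08, the MINO 24 h median from -0.03 (32 above 0, without GS716054 replicate 3) to 0.06, and the UPN-1 72 h median from -0.09 (27 of 85 above 0, without GS716054 replicate 2) to 0.11 (53 above 0, without DMSO replicate 2). Without DMSO replicate 1 of UPN-1 at 72 h, 25 of 85 were above 0, against 41 with all libraries. The MINO 24 h median was -0.01 with DESeq2 size factors, and that of JEKO at 24 h was -0.02 with the replicate block within each time. In MINO at 72 h, 58 of the 75 genes were above 0. Without GS716054 replicate 2 of that group, 40 of 75 were above 0 and the median was 0.04, and that library also had the highest summed level of the 92 genes in MINO, 1222 CPM against 927.5 and 958.8 CPM in the other treated libraries. The DMSO library with the same number was likewise the highest of its group, at 1095 CPM against 874.1 and 915.6 CPM. The medians of the ZNF genes elsewhere on chromosome 19 and of other chromosomes were 0.10 and 0.10 in that comparison, and that of the other protein-coding genes of distal 19q was -0.03. By position, the tested genes of the first group had a higher median than those of the second in 5 of the 6 comparisons, by values of 0.09 against -0.06 and 0.01 against -0.15 in JEKO, 0.11 against -0.08 in MINO at 24 h, and -0.02 against -0.08 and 0.02 against -0.06 in UPN-1. In MINO at 72 h the order was 0.09 against 0.18. These differences were not tested.

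The effect at 72 h did not differ by the test from that at 24 h for any zinc finger gene. By edgeR 0 were called in each line, where, for JEKO, MINO and UPN-1 in turn, 0%, 0.0133% and 0% of all genes were, and 1, 2 and 0 had an unadjusted p under 0.05 (1.79%, 5.02% and 1.52% of all genes). DESeq2 called 0 as well. For the mean effect over the lines at 72 h, 0 of 87 genes were called by edgeR and by DESeq2, where edgeR called 4.66% of all genes, and 6 had an unadjusted p under 0.05 (18% of all genes). The effect at 24 h differed among the lines for 0 of 87 genes by either tool (0.106% of all genes by edgeR), with 3 at an unadjusted p under 0.05 (7.37%). With the replicate block within each time the mean effect called 7 genes at 24 h (9.2% of all genes) and 5 at 72 h (16.7%), and the difference among lines at 72 h called 4 (9.78%). For the mean effect at 24 h these were ZNF544, ZNF256, ZNF614, ZNF134 and ZNF331, lower, and ZNF765 and ZNF582, higher, of which all but ZNF544 are named after their values were seen. ZNF582 was at 0 CPM in MINO DMSO at 24 h, so its estimate depends on the prior count. Its 24 h effect differed among the lines at an unadjusted p of 0.00431 by edgeR (adjusted p = 0.246).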

How the data were processed

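Per the labels, the 36 libraries were made from RNA isolated with an mRNA kit from Qiagen. The submitters' processing notes name HISAT2 2.2.1, HTSeq 0.13.5 and GRCh38. How HTSeq was set (annotation release, strand, counting mode) is not given in the sources used here. The authors deposited whole-number read counts per gene for each library, without normalisation. Lines that name no gene (43.3% to 45.9% of reads in no feature) were left out.

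Genes were matched by identifier to GENCODE v44 (57532 of 58302), and the count files' own annotation may differ. Each line's 12 libraries were fitted with edgeR 4.0.16 (R 4.3.3; TMM, filterByExpr with minimum count 10 and minimum total 15, quasi-likelihood test, 8 residual degrees of freedom), and all 36 libraries were fitted together for mean effects and differences among lines (24 residual degrees of freedom). Calls used adjusted p under 0.05 (Benjamini-Hochberg, over every gene that passed the filter). Standard errors are the absolute log2 fold change over the square root of F. Alternatives were DESeq2 1.42.0, its size factors in edgeR, no filter, a minimum count of 50, only the 6 libraries compared, a replicate block, and leaving out each library. The fit was also run on simulated counts with known changes, drawn independently for each library. Such counts hold no pairing by replicate number, so they cannot check its effect on the calls.

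Replicate numbers pair libraries within a time: deviations of same-numbered DMSO and GS716054 libraries correlated at 0.055 to 0.593, over 0.1 in 17 of 18 pairs, the exception being JEKO 24 h replicate 2. A block within each time was therefore added after seeing the data.

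KRAB patterns (conserved residues of the KRAB A box) and C2H2 patterns were searched in coding sequences of GENCODE canonical transcripts, translated here in place of a protein table. Named genes are those called (up to 8 per direction and comparison), or else also the 3 with the smallest p, the 5 highest per kb, those with the widest range over lines, and some at 0. The genes and lists were chosen with earlier results of these data known.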

Additional observations from a re-analysis of the deposited data

Results flagged for a closer look

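The effect of GS716054 on ZNF416 at 72 h was opposite in sign in MINO (log2 fold change 1.10) and JEKO (-0.66) and near 0 in UPN-1 (0.02), and a test of the difference among the lines gave an edgeR adjusted p of 0.0013. The difference was also called by DESeq2 (6.26e-05) and with the replicate block within each time (0.0011). In MINO the DMSO libraries at 72 h (2.79 to 3.59 CPM) were below those at 24 h (5.56 to 6.08 CPM). Both of these groups had DMSO alone, and the time effect in DMSO was not tested. The effect of GS716054 on ZNF416 in MINO was not called different between the times.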

How the results depend on the processing

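Results are counts of called zinc finger genes unless stated. DESeq2 size factors and a minimum count of 50 changed no count by more than 1.5 times. For MINO at 72 h, where 1 gene was called, the count was 2 with the DESeq2 test, 3 without the low-count filter, 0 in the 6 libraries compared and 2 with the replicate block. For MINO at 24 h, where 1 gene was called, it was 2 in the 6 libraries compared. The mean effect at 24 h went from 1 to 0 without the filter, and that at 72 h from 0 to 1 with the replicate block. The replicate block within each time, added after seeing the data, gave 3 for MINO at 24 h and 5 at 72 h, 1 and 2 for UPN-1 at 24 h and 72 h, 7 and 5 for the mean effects at 24 h and 72 h, and 4 for the difference among lines at 72 h. In JEKO at 24 h, where not all pairs correlated, it called 0. It lowered the count for the DMSO level among lines from 77 to 67 (66 with the replicate block) and changed no other count. The causes were not tested. Leaving out each library in turn gave 0 to 0 for MINO at 24 h, 1 to 2 for MINO at 72 h (2 without DMSO replicate 3), 0 to 1 for the mean effects at 24 h and 72 h (1 at 72 h without MINO DMSO replicate 3), 69 to 76 for the DMSO level among lines, 1 to 1 for the difference among lines at 72 h, and 0 to 0 for the others. Uncalled effects changed sign without 1 library for SETDB1 (MINO 72 h, -0.165 to 0.0278; UPN-1 72 h, -0.223 to 0.0396), TRIM28 (JEKO 24 h, -0.15 to 0.19; JEKO 72 h, -0.24 to 0.0917; MINO 72 h, -0.141 to 0.0574; UPN-1 72 h, -0.14 to 0.17) and ZNF274 (MINO 72 h, -0.186 to 0.0329). Depth limits genes near 1 CPM, where 1 library holds about 10 reads.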

Other observations

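ZNF582 had 0 reads in the 3 MINO DMSO libraries at 24 h and 11 in the 3 GS716054 libraries, against 19 and 26 in JEKO and 139 and 118 in UPN-1. Its fitted mean effect over the lines at 24 h, 1.80 on the log2 scale (SE 0.523, edgeR adjusted p = 0.104), depends on the prior count, since MINO DMSO was at 0, and is no bound. The treated MINO levels were 0.109, 0.742 and 0.18 CPM. At 72 h MINO had 5 reads in DMSO and 11 with GS716054. The gene was singled out for these values.

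The DMSO level of ZNF135 in JEKO was 5.01 to 5.72 CPM at 24 h and 11.8 to 15.6 CPM at 72 h, and that of ZNF331 was 4.07 to 7.24 CPM at 24 h and 9.41 to 36.4 CPM at 72 h. The ranges did not overlap for either gene. In MINO, ZNF160 was at 62.6 CPM in DMSO replicate 2 at 72 h and 70.7 CPM in GS716054 replicate 2, against 23.0 to 25.9 CPM in the other 4 libraries of that time, and UPN-1 replicate 2 was likewise the highest of its groups at 72 h (35.5 CPM in DMSO and 28.2 CPM with GS716054). These genes were chosen after their values were seen, and the time effect in DMSO was not tested here.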
